A study of Solanum lycopersicum and Solanum tuberosum and Capsicum annuum and Nicotiana tabacum with 10 samples.

Results

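Leaf RNA of 5 Solanaceae species was set against potato leaf RNA on potato cDNA arrays, and 14 genes with only a locus name lay close to the potato signal in every one of them. They were chosen from the 339 genes on the array whose sole symbol starts with LOC, of which 327 had a value in every species. For each array the log2 ratios of all spots of a gene were averaged, then the 2 arrays of a species, and a gene was taken where all 5 species means fell between -0.4 and 0.4, which is 1.32-fold on the linear scale. The choice used these ratios, so the ratios themselves are given as a description without a test.

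The query species were tomato (Solanum lycopersicum), pepper (Capsicum annuum), tobacco (Nicotiana tabacum), Nicotiana benthamiana and petunia (Petunia x hybrida), with potato (Solanum tuberosum) as the common partner. The plants carried no treatment. Mature leaves were taken after 4 to 6 weeks of growth in a 16 h day at 25°C. Each query species was labeled with Cy3 on its 2 arrays and potato with Cy5 on all 10, so no dye was swapped. The labels give 1 potato extract for the 5 arrays of replicate 1 and another for the 5 arrays of replicate 2, and do not say whether extracts came from separate plants, so the spread between replicates may be technical. The files hold log2 ratios with no stated direction. Potato is named first in the array titles, so a value above 0 likely marks the spot where potato was the brighter partner.

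The Solanaceae, or nightshade family, hold crops grown for tubers, fruits, leaves and flowers, and their genes are similar enough in sequence that RNA of one species binds to cDNA probes of another. A 2-colour ratio near 0 on such an array means that the query species and potato gave about the same signal at the spot. It combines the amount of transcript with how well the foreign transcript binds to a potato probe, and these cannot be told apart here. A ratio also gives no level, so a gene near 0 can be abundant in both species or scarce in both, and leaf markers could not be checked.

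A symbol that starts with LOC is a placeholder for a gene that has been located in a genome but carries no published name in the annotation used. The sources used here give no product, sequence or position for the 14 genes, so they are known below by locus symbol, number of clones and values alone. Clones are the cDNA probes, each printed as 2 spots.

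Closeness to potato in all species was rare. Of the 327 locus genes, 4.28% met the limit in all 5 species, against 6.19% of 9454 features, where a feature is a gene with 1 symbol or a clone without one. A further 34 locus genes met it in 4 species, 36 in 3, 54 in 2 and 72 in 1 species, and 117 met it in none. By species, the limit held in tomato for 38.7% of the locus genes measured there, against 39.8% of all features. It held in pepper for 29.9% against 36.8%, in tobacco for 31.3% against 34.6%, in N. benthamiana for 22.6% against 32.6% and in petunia for 28.9% against 34.6%. Locus genes thus had the lower share in each of the 5 species, by most in N. benthamiana, a difference that was not tested. Their share in N. benthamiana was 28.9% on replicate 1 alone and 22.8% on replicate 2 alone. Among 83 genes with a name of another kind and a value in every species, 4 met the limit in all species, namely ADH1, an alcohol dehydrogenase, KST1, a potassium channel, RANGAP2 and TYKY2.

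**Figure D1:**
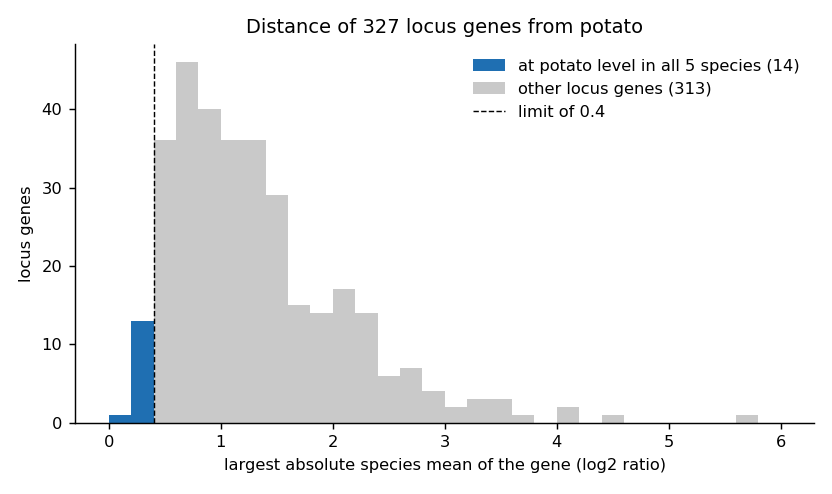
Histogram of the largest absolute species mean of each of 327 locus genes (x axis, log2 ratio) with the number of genes on the y axis; blue bars are the 14 genes within 0.4 of potato in all 5 species, grey bars the 313 others, and the dashed line is the limit. The 14 genes sit at the low edge of a single distribution, with no gap at the limit.

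The limit cut through a continuous range. The members nearest to it were LOC102578876, with a mean of -0.40 in petunia, LOC102577828, with -0.40 in N. benthamiana, LOC102577438, with 0.39 in petunia, LOC102577573, with 0.37 in pepper, LOC102577624, with 0.36 in pepper, and LOC102577813, with -0.36 in petunia. The nearest genes outside it were LOC102600909, whose largest absolute mean was 0.41, LOC102597649 with 0.41, LOC102589265 with 0.41, LOC102592690 with 0.42, LOC102581104 with 0.43 and LOC102577454 with 0.44. The species means of the 14 genes had standard errors of 0.13 to 0.30 in limma, with a median of 0.17, and their 95% half-widths were 0.30 to 0.68. This fit treated the arrays as independent, although those of a replicate shared a potato extract, so the half-widths may be too narrow. With the replicate as a random effect the median standard error was 0.18. The genes named here on both sides of the limit were closer to it than the smallest of these standard errors.

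All 14 genes had a value on each of the 10 arrays, as did 281 of the 313 other locus genes. At the level of single spots, 86.5% of 520 possible values of the 14 genes were present, against 89.6% of 12260 for the others. The 2 spots of a clone lay within 0.4 of each other in 95.2% of 207 cases for the 14 genes, against 91.5% of 5246 cases for the others. Their median absolute difference was 0.129 in the 14 genes and 0.122 in the others. The spread between the 2 arrays of a species, pooled over species, had a median SD of 0.23 in the 14 genes and 0.25 in the others. Its range over the 14 genes was 0.10 to 0.52. Spread between arrays was thus of the same order in both sets, and in the least steady of the 14 genes it exceeded the limit used to choose them.

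**Figure D2:**
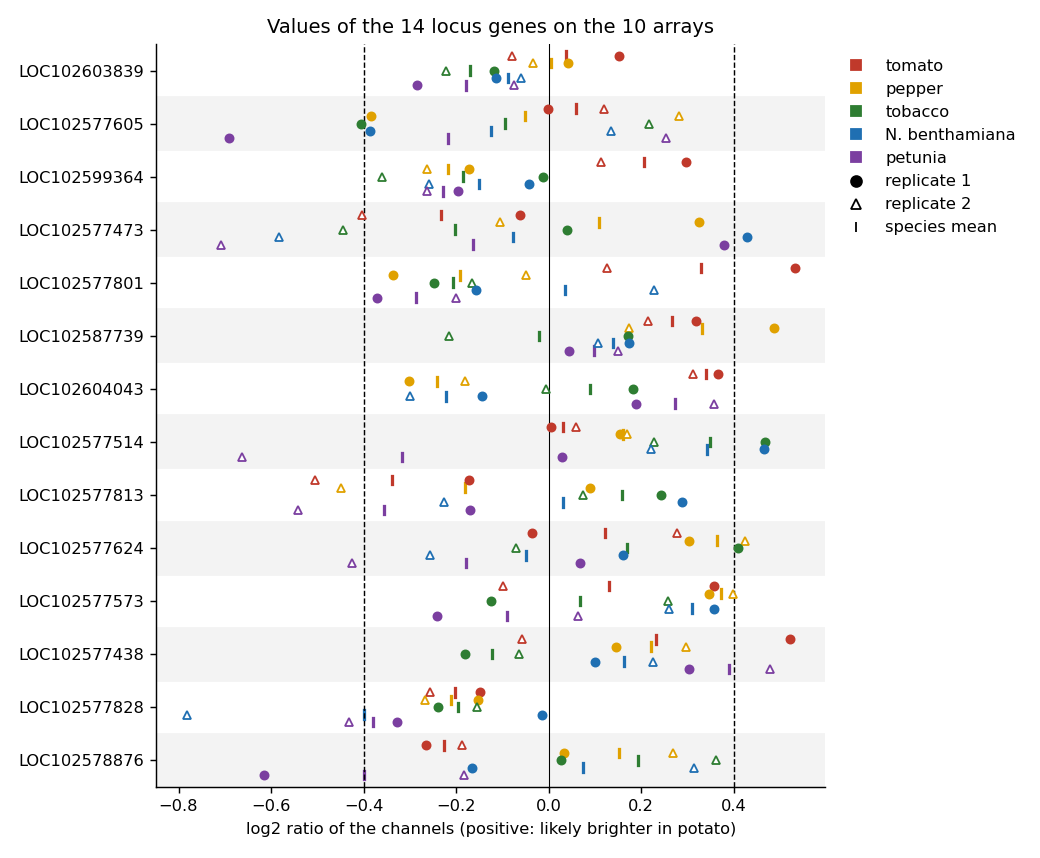
Log2 ratio (x axis) of each of the 14 locus genes (rows, ordered by largest absolute species mean) on the 10 arrays; colours are query species, filled circles replicate 1, open triangles replicate 2, short bars species means and dashed lines the limits of -0.4 and 0.4. The rows of LOC102603839, LOC102599364, LOC102604043 and LOC102577573 have no point outside the limits, and those of LOC102577605 and LOC102577473 split by replicate.

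Within the limit on every single array were 4 of the 14 genes, LOC102603839, LOC102599364, LOC102604043 and LOC102577573. LOC102603839, the gene nearest to potato, had log2 ratios of 0.15 and -0.08 in tomato, 0.04 and -0.03 in pepper, -0.12 and -0.22 in tobacco, -0.11 and -0.06 in N. benthamiana and -0.28 and -0.07 in petunia (replicates 1 and 2). Its species means ran from -0.18 in petunia to 0.04 in tomato, and the SD between arrays was 0.11. These values average clones that differed and were not all present on every array, as described below. Tobacco, N. benthamiana and petunia were below 0 on both arrays, while tomato and pepper had an array on either side.

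LOC102599364 had 0.30 and 0.11 in tomato, -0.17 and -0.26 in pepper, -0.01 and -0.36 in tobacco, -0.04 and -0.26 in N. benthamiana and -0.20 and -0.26 in petunia. Tomato alone was above 0, and the other 4 species were below 0 on both of their arrays. Its SD between arrays was 0.15, while the tomato mean of 0.21 lay 0.43 above the petunia mean of -0.23.

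LOC102604043 had the smallest spread between arrays, with an SD of 0.10. Its values were 0.37 and 0.31 in tomato, -0.30 and -0.18 in pepper, 0.18 and -0.01 in tobacco, -0.14 and -0.30 in N. benthamiana and 0.19 and 0.36 in petunia. Tomato and petunia were above 0 and pepper and N. benthamiana below 0 on both arrays, and tobacco had an array on either side.

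LOC102577573 had 0.36 and -0.10 in tomato, 0.35 and 0.40 in pepper, -0.12 and 0.26 in tobacco, 0.36 and 0.26 in N. benthamiana and -0.24 and 0.06 in petunia. Pepper and N. benthamiana were positive on both arrays, and the other 3 species had opposite signs on their 2 arrays. The species order was therefore not settled by its replicates, at an SD between arrays of 0.21.

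Choosing genes on the arrays of one replicate left those of the other unused. When genes were chosen on the replicate 1 arrays alone, 13 of 295 locus genes with values on all arrays met the limit in all 5 species. Of these, 4 also met it in all 5 species on the replicate 2 arrays, or 30.8%, against 3.39% of all 295 genes and 2.13% of the 282 genes not chosen; no test was made. When they were chosen on replicate 2, 10 genes met the limit, and 4 of them met it on replicate 1 as well, against 4.41% of all 295 genes. The 4 genes are the same by construction, and are the 4 described above. By single species, the 13 genes chosen on replicate 1 were within the limit in 50 of 65 cases on replicate 2, or 76.9%, against 27.9% of 1410 cases for the genes not chosen. Genes chosen on 1 replicate thus stayed within the limit on the other more often than genes not chosen. Most of them still left it there in at least 1 species. Of the 13 genes chosen on replicate 1, 6 were among the genes chosen on the means of both replicates. Of the 10 chosen on replicate 2, 8 were among them. The choice on both replicates left no arrays unused, so these shares do not test the genes it gave.

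Of the 14 genes, 5 moved the same way between replicates in all 5 species, which is 35.7%, against 44.5% of 281 other locus genes. The difference between replicate 2 and replicate 1, with the species as a block, does not depend on the species means by which the genes were chosen, and it was tested with limma over 7561 features with values on all arrays. It called 28.0% of all features at an adjusted p under 0.05, with 13.3% higher and 14.7% lower in replicate 2. Among the 14 genes 3 were called, 1 higher and 2 lower, a share of the order of the background. Each replicate had its own potato extract, its own query extracts and its own hybridizations, and which of these differed cannot be told apart. With 1 potato extract for each replicate, the p-values measure how evenly the 5 species shifted and not the spread among extracts.

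LOC102577473 showed the largest shift. It had -0.40, -0.11, -0.45, -0.58 and -0.71 in tomato, pepper, tobacco, N. benthamiana and petunia on replicate 2, against -0.06, 0.32, 0.04, 0.43 and 0.38 on replicate 1. The fall of 0.67 on the log2 scale (limma difference -0.67, standard error 0.14, adjusted p = 0.0067) was seen in 5 of 5 species, and the replicates did not overlap. Its species means of -0.23 to 0.11 were thus averages of values of opposite sign in 4 of 5 species. It had 1 clone.

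LOC102577605 went the other way. Its log2 ratios were 0.12, 0.28, 0.22, 0.14 and 0.25 in tomato, pepper, tobacco, N. benthamiana and petunia on replicate 2, against -0.002, -0.38, -0.41, -0.39 and -0.69 on replicate 1. It rose by 0.58 (standard error 0.13, adjusted p = 0.0096 from limma), with a positive difference in 5 of 5 species and no overlap between the replicates. Its 2 clones showed it separately. The first clone had 0.17, 0.43, 0.14 and 0.33 in pepper, tobacco, N. benthamiana and petunia on replicate 2, against -0.55, -0.20, -0.34 and -0.67 on replicate 1. The second clone had 0.34, -0.0005, 0.14 and 0.18 in the same species on replicate 2, against -0.30, -0.61, -0.41 and -0.74 on replicate 1. In tomato the first clone had 0.17 on replicate 2 against -0.12 on replicate 1, and the second 0.07 against 0.12. Both clones were higher on replicate 2 in the other 4 species.

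LOC102577813 fell by 0.39 on the log2 scale in replicate 2 (limma difference -0.39, standard error 0.11, adjusted p = 0.023), lower in 5 of 5 species. Its values were -0.51, -0.45, 0.07, -0.23 and -0.54 in tomato, pepper, tobacco, N. benthamiana and petunia on replicate 2, against -0.17, 0.09, 0.24, 0.29 and -0.17 on replicate 1. Tobacco was the only species above 0 on both arrays. Its clones did not all fall. In tobacco the second clone rose from 0.286 to 0.395 and the fourth from -0.151 to -0.098, and the third fell from 0.398 to 0. In petunia the second clone rose from -0.566 to -0.454. Every other clone was lower on replicate 2 in each species where both arrays had a value. On replicate 1 the fourth clone had no value in pepper, and the second none in N. benthamiana. The call was lost without the arrays of pepper (adjusted p = 0.089), N. benthamiana (0.060) or petunia (0.069). LOC102578876 had a limma difference of 0.31, above 0 in 5 of 5 species, with an adjusted p of 0.051. The difference was 0.32 with an adjusted p of 0.049 when arrays were centred on their medians. Its second clone was higher on replicate 2 in all species, but its first was lower in tomato, tobacco and petunia. Only 28 of its 40 spot values were present, so the clones weighed unequally on some arrays, tobacco replicate 2 among them. LOC102599364 had a difference of -0.18, below 0 in 5 of 5 species, and did not pass (adjusted p = 0.21 from limma). For the other 9 genes the difference lay between -0.22 and 0.10.

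**Figure D3:**
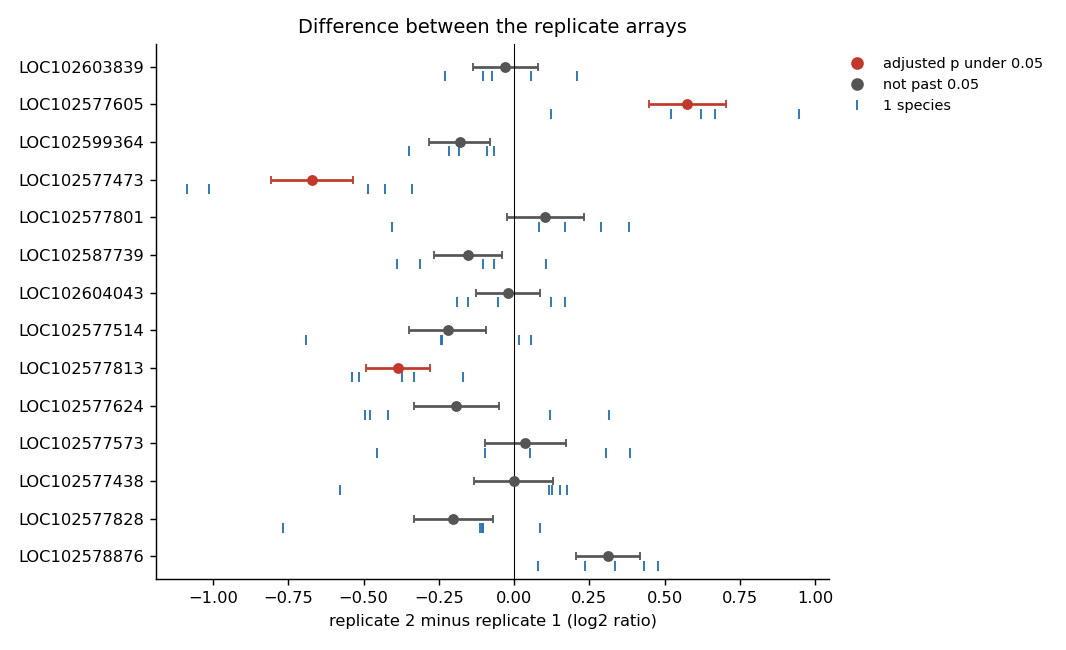
Replicate 2 minus replicate 1 (x axis, log2 ratio) for each of the 14 locus genes (rows); circles with bars are the limma difference and its standard error over 5 species, red where the adjusted p was under 0.05, and blue ticks are the 5 species. LOC102577605 at 0.58 and LOC102577473 at -0.67 stand farthest from 0, each with all ticks on one side.

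A gene mean near potato did not always mean clones near potato. Of the 14 genes, 7 had 1 clone and 7 had 2 to 4. Among the 17 clones of these 7 genes with a value in every species, 6 were within the limit in all 5 species, and 11 were not, against 3.83% within it among all 601 such clones of locus genes. The 601 include the clones of the 14 genes. Clone values are part of the gene means that the rule used, so the difference in shares is a description. For LOC102577605 both clones were within the limit, and for LOC102578876 and LOC102577514 neither was.

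LOC102578876 was the clearest case. Its first clone had -0.57 and -0.62 in tomato, -0.43 and -0.34 in pepper, -0.92 and -1.12 in tobacco, -1.34 and -1.12 in N. benthamiana and -1.19 and -1.28 in petunia. Its second clone had -0.11 and 0.03 in tomato, 0.27 and 0.58 in pepper, 0.97 and 1.10 in tobacco, 0.42 and 1.03 in N. benthamiana and -0.04 and 0.37 in petunia. The clones did not overlap in any species, and in tobacco their means stood at -1.02 and 1.04. The gene mean of 0.19 in tobacco described neither clone. With clones averaged before the gene, or with the median of the spots, LOC102578876 no longer met the limit.

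LOC102577438 had 4 clones. The first averaged -0.30 over the 10 arrays and was negative on all of them, from -0.57 to -0.01. The second averaged 0.39 and was positive on all of them, from 0.06 to 0.80. The third averaged 0.54, with its highest value of 1.09 in petunia, and the fourth 0.01, between -0.34 and 0.28. The gene had 0.52 and -0.06 in tomato, 0.15 and 0.30 in pepper, -0.18 and -0.06 in tobacco, 0.10 and 0.23 in N. benthamiana and 0.30 and 0.48 in petunia, with only tobacco below 0 on both arrays.

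LOC102603839, the gene nearest to potato, also rested on clones that differed. Its first clone lay between 0.05 and 0.51 on 9 arrays. On tomato replicate 1 only the second clone had a value, so the gene value there was that of a single clone. Its second clone had -0.74 and -0.75 in tobacco and -0.64 and -0.62 in N. benthamiana, but 0.15 and -0.20 in tomato and 0.19 and -0.26 in pepper. The third clone had a value on 6 arrays only, from -0.82 to 0.24. The gene mean in tobacco, -0.17, was farther than 0.4 from both the mean of the first clone, 0.35, and that of the second, -0.74.

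LOC102577514 had a first clone at 0.53 in tobacco and 0.68 in N. benthamiana, and a second at 0.15 and -0.12 in these species. In petunia the second clone had -0.29 and -1.26, against 0.19 and -0.06 for the first clone. The gene had 0.004 and 0.06 in tomato, 0.15 and 0.17 in pepper, 0.47 and 0.23 in tobacco, 0.47 and 0.22 in N. benthamiana and 0.03 and -0.66 in petunia. Its lowest value came from the petunia array on which the second clone was also lowest. Of the 4 clones of LOC102577813, the first had a value on 1 array only, and the other 3 averaged between -0.26 and -0.07. By species, the second clone was outside the limit in petunia, at -0.51. The fourth was outside it in tomato, at -0.53, and pepper, at -0.58, and the third was within it in all species. The clones of LOC102587739 averaged 0.09 and 0.23, and its gene values were 0.32 and 0.21 in tomato, 0.49 and 0.17 in pepper, 0.17 and -0.22 in tobacco, 0.17 and 0.11 in N. benthamiana and 0.04 and 0.15 in petunia. The gene was positive on 9 of 10 arrays, with tobacco on replicate 2 as the exception. Its second clone was outside the limit in tomato, at 0.41, and its first was within it in all species.

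**Figure D4:**
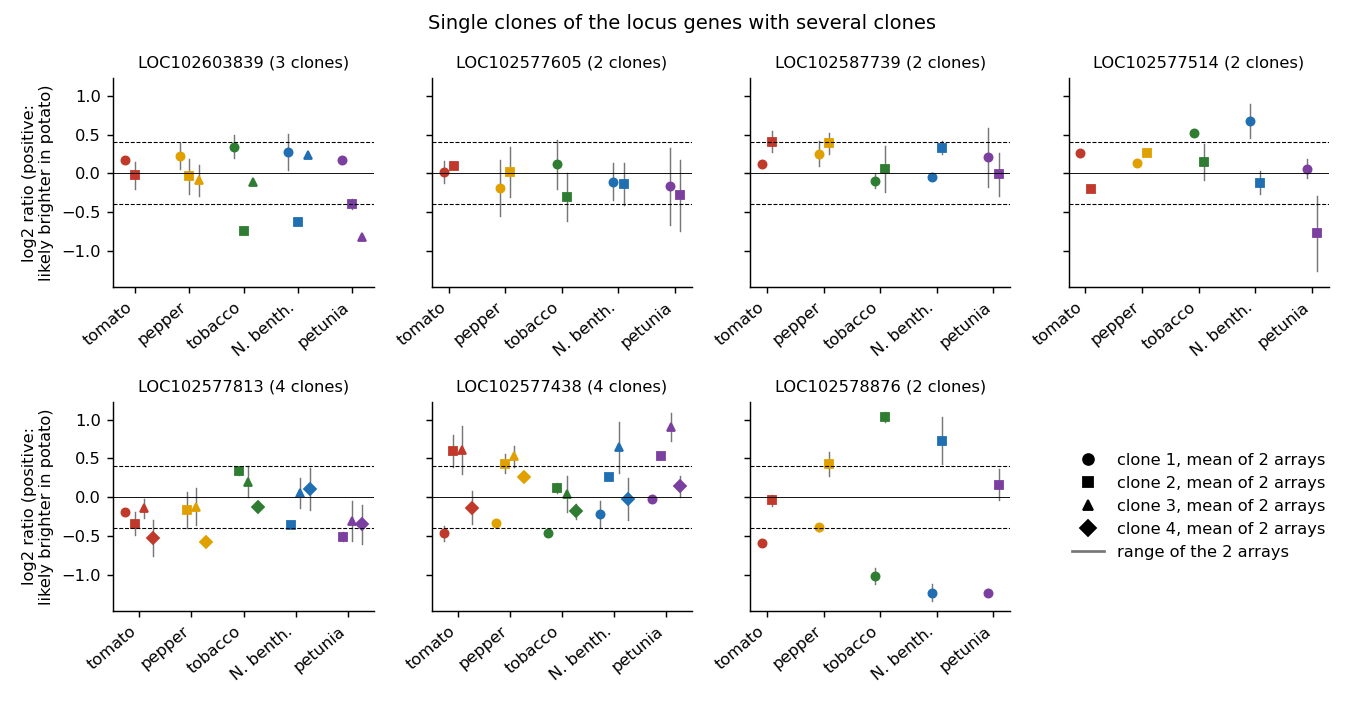
Species means of the single clones (y axis, log2 ratio) of the 7 locus genes with several clones, by query species (x axis); marker shapes are clones, grey lines join the values on the 2 arrays and dashed lines are the limits of -0.4 and 0.4. The 2 clones of LOC102578876 diverge to -1.02 and 1.04 in tobacco, while those of LOC102577605 stay within the limit in all species.

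The remaining 3 genes had 1 clone each. LOC102577801 had 0.53 and 0.13 in tomato, -0.34 and -0.05 in pepper, -0.25 and -0.17 in tobacco, -0.16 and 0.23 in N. benthamiana and -0.37 and -0.20 in petunia. As in LOC102599364, tomato alone was above 0 on both arrays, and pepper, tobacco and petunia were below 0 on both. LOC102577624 had -0.04 and 0.28 in tomato, 0.30 and 0.42 in pepper, 0.41 and -0.07 in tobacco, 0.16 and -0.26 in N. benthamiana and 0.07 and -0.43 in petunia, so that only pepper kept its sign. LOC102577828 had -0.15 and -0.26 in tomato, -0.15 and -0.27 in pepper, -0.24 and -0.15 in tobacco, -0.01 and -0.78 in N. benthamiana and -0.33 and -0.43 in petunia. It was the only one of the 14 genes below 0 on all 10 arrays, with a mean of -0.28 over the species, and a single N. benthamiana array held its lowest value.

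Signs were less steady in these genes than in others, as a ratio near 0 allows. The 2 arrays of a species had the same sign in 44 of 70 cases, or 62.9%, against 90.5% of 1405 cases in the other locus genes. In 6 of the 14 genes 1 species was above 0 and another below 0 on both arrays, against 29.2% of the 295 locus genes with values on all arrays. Single arrays were within the limit for 117 of 140 values, or 83.6%, against 28.1% of 3079 values in the others. The limit on the species means bears on all of these shares, so they are a description.

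Across species, petunia most often had the lowest log2 ratio. This is the brightest signal relative to potato under the likely direction, and the dimmest if the ratios run the other way. It was lowest in 9 of the 14 genes, or 64.3%, against 16.6% of the 313 other locus genes and 24.5% of 571 other features within the limit in all species. Tobacco was lowest in 2 genes, and tomato, pepper and N. benthamiana in 1 each. The median species mean of the 14 genes was -0.20 in petunia. It was 0.09 in tomato, 0.06 in pepper, -0.01 in N. benthamiana and -0.06 in tobacco. Tomato was the highest species in 5 genes, pepper and tobacco in 4 each, petunia in 1 and N. benthamiana in none. On replicate 1 alone petunia was lowest in 8 of the 14 genes, and on replicate 2 alone in 5, so the count rested more on replicate 1. When the genes were also chosen anew, petunia was lowest in 1 of 10 genes without replicate 1, and in 3 of 9 without petunia replicate 1 alone, against 9 of 14 with all arrays. The array medians of petunia were both -0.029, within the range of -0.043 to -0.014 over all arrays. No test was made, as the same ratios chose the genes.

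**Figure D5:**
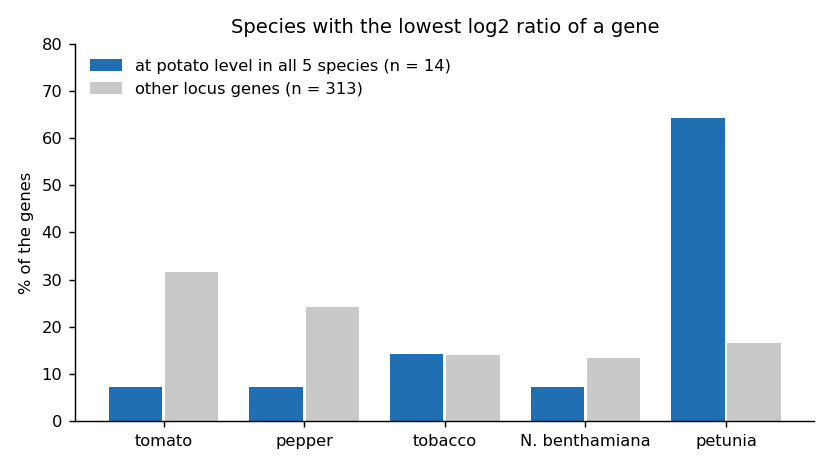
Percent of genes (y axis, from 0) in which each query species (x axis) had the lowest log2 ratio; blue bars are the 14 locus genes at potato level in all species, grey bars the 313 other locus genes. Petunia reaches 64.3% in the blue bars and 16.6% in the grey bars.

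The gap between the highest and the lowest species mean of a gene ran from 0.20 in LOC102577828 to 0.67 in LOC102577514, with a median of 0.49, against 0.98 in the other locus genes, where the limit did not apply. A difference between 2 query species had a median standard error of 0.24 in limma, or 0.21 with the replicate as a block. Tobacco stood at 0.35 and petunia at -0.32 in LOC102577514, the widest gap, while its tomato mean of 0.03 lay between them. In LOC102577438 the order was turned, with petunia at 0.39 and tobacco at -0.12. Each of these gaps spans both sides of potato in the species means, and no species was on one side of potato in all 14 genes. In LOC102577514 the petunia mean averaged 0.03 and -0.66, so the petunia arrays lay on either side of potato. The lower value held a second clone at -1.26.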

How the data were processed

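Signals of 10 potato cDNA arrays, 2 per query species, were extracted by the authors with GenePix. They removed spots not found in 1 channel, with many saturated pixels or of small diameter, subtracted the local background and applied quantile normalization in limma. The sources used here name no version of it. As deposited, each spot holds 1 log2 ratio, which lies within 0.0015 of minus log2 of a ratio with 2 decimals. Quantile normalization removes a difference in signal over all spots, so potato level means the level relative to the other spots of an array. Precision is limited by having 2 arrays per species.

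Of 32448 spots, 30638 had no gene symbol, 1630 had 1 and 180 had several, and only those with 1 were used as genes. The 2 spots of a clone were found from the layout, which placed all 905 pairs with a shared sequence record together. No data column was left unmapped (0).

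The members and lists were chosen with earlier results of these data known. The planned groups by gene product and the protein comparison were not made, as no product or sequence was given. Locus genes named were all members, plus the 6 nearest outside the limit. The 4 other genes named were those with a name of another kind that met the limit in all species. Differences between replicates were tested with limma 3.58.1 in R 4.3.3 (lmFit, eBayes, Benjamini-Hochberg over 7561 features, two-sided). On simulated arrays with 200 of 7561 features changed between replicates, this fit found 48.0% of those changed by 0.5 and 99.5% of those changed by 1 on the log2 scale, with 6 and 9 false calls. The simulated errors were independent between arrays, without a shared potato extract, and far fewer features changed than the 28.0% called in the data. The simulation therefore checks the fit alone and does not give its power or false calls on the real arrays. Standard errors and 95% half-widths of the species means came from a limma fit over 9454 features, without the replicate as a block. Same-numbered arrays share a potato extract by the labels, and their deviations correlated at 0.29 to 0.68 in 10 pairs of species across 7561 features, so the replicate numbers pair the arrays. Alternatives covered the limit, centring and scaling of arrays, the averaging of spots and clones, missing values, the replicate block, robust eBayes and leaving out arrays. Python 3.11.15 and pandas 2.3.3 were used for counts.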

Additional observations from a re-analysis of the deposited data

Results flagged for a closer look

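In 6 of the 14 genes both arrays of 1 query species lay above 0 and both of another below, against 29.2% of 295 locus genes with values on all arrays. These differences between species were not tested, and the largest such difference of each gene is given. The order is the first species minus the second. LOC102577801 had 0.62 for tomato minus petunia, with means of 0.33 in tomato and -0.29 in petunia. LOC102578876 had 0.59 for tobacco minus petunia, with means of 0.19 and -0.40. Its clones lay on opposite sides of potato in tobacco, and in both the tobacco mean was above the petunia mean. On tobacco replicate 2 the clones had -1.12 and 1.10, and the gene value of 0.36 held more spots of the second clone. The sign of the gene on that array thus depended on which spots were present. LOC102604043 had 0.58 for tomato minus pepper, with 0.34 and -0.24. LOC102577813 had 0.52 for tobacco minus petunia, with 0.16 and -0.36. Not all of its clones were above 0 in tobacco. On replicates 1 and 2 there, clone 4 had -0.151 and -0.098, clone 3 had 0.398 and 0, and clone 2 had 0.286 and 0.395. In each of these clones the tobacco mean was above the petunia mean. LOC102577438 had -0.51 for tobacco minus petunia, with -0.12 and 0.39. Its first clone was below 0 and its second above 0 on all arrays of both species. In each of its 4 clones the tobacco mean was below the petunia mean. LOC102599364 had 0.43 for tomato minus petunia, with 0.21 and -0.23.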

How the results depend on the processing

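Membership depended on the limit and on single arrays. With a limit of 0.3 there were 4 genes and with 0.5 there were 28. Leaving out 1 array gave 9 to 16 genes, with 9 without petunia replicate 1, where 8 of the 14 remained and 6 were lost. On 1 replicate alone there were 13 genes (replicate 1) or 10 (replicate 2). LOC102603839 and LOC102599364 met the limit in all 19 alternatives, and LOC102577473 and LOC102577514 in 12. Under the limits of 0.3 and 0.5, the shares of locus genes were 30.2% and 47.4% in tomato, 23.9% and 39.3% in pepper, 23.8% and 35.8% in tobacco, 18.1% and 31.3% in N. benthamiana and 22.6% and 35.8% in petunia. Without 1 array of the species they were 36.4% to 38.2% in tomato, 29.4% to 31.9% in pepper, 28.5% to 30.8% in tobacco, 22.8% to 28.9% in N. benthamiana and 28.0% to 29.5% in petunia. The 4 genes that held in both replicates were 3 on median-centred arrays, without LOC102577573. The count of genes with petunia lowest, an alternative chosen after seeing the data, was 5 to 8 on 1 replicate and 8 on median-centred arrays for the same genes. With the genes chosen anew it was 1 of 10 without replicate 1, 7 of 13 without replicate 2 and 3 of 9 without petunia replicate 1. The replicate block gave standard errors of 0.21 for differences between query species and, as a random effect, 0.18 for species means. Without the arrays of 1 species, 2 to 4 genes differed between replicates and 1066 to 2468 features, against 2119 with all. Of 98 values of this difference under alternatives, 7 changed sign, all in genes that had not passed. Without 1 species each, the range was -0.0884 to 0.0216 in LOC102603839, -0.0691 to 0.0205 in LOC102604043, -0.0491 to 0.161 in LOC102577573 and -0.0460 to 0.143 in LOC102577438, which was 0.0015 on centred arrays.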
